A study of Mus musculus with 8 samples.

Results

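The cells described here are lineage-negative mouse bone marrow cells that carried transcripts of Lpl, F7 or Fn1. They also stayed under set counts of some granule and monocyte genes, although other granule transcripts were abundant. They were chosen by a gate on unique molecular identifiers (UMIs, each counting 1 captured transcript). A cell entered with at least 2 UMIs summed over Lpl, F7 and Fn1, under 100 over Elane, Mpo, Prtn3 and Ctsg, under 150 over Ngp and Camp, and under 3 over Vcan and Mpeg1. The gate held 304 of 17384 kept cells, 111 of 9063 in media control and 193 of 8321 in deoxycholic acid. Whole bone marrow had been grown for 1 week on irradiated AFT024 cells, a fibroblast line from mouse embryonic liver that feeds blood progenitors, in hydrocortisone-containing long-term culture medium. One group received 35 µM deoxycholic acid, which gut bacteria make from a primary bile acid, and the other no bile acid. Both groups were sorted as lineage-negative before droplet-based single-cell RNA sequencing. The sources used here do not give strain, genotype, sex or age.

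Lipoprotein lipase (Lpl) releases fatty acids from triglyceride-rich lipoproteins, and apolipoprotein C-II (Apoc2) is its activator. Coagulation factor VII (F7) starts clotting when it meets tissue factor, and fibronectin (Fn1) is a matrix protein that cells bind through integrins. Monocytes and macrophages are known to make all of these, and Stfa1 encodes a stefin, a cytosolic inhibitor of cysteine proteases that is abundant in myeloid precursors. The series asks how secondary bile acids act on myeloid progenitors, with the vitamin D receptor named in its title.

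Promoter windows were at hand for 3 of the 5 marker genes of these cells, F7, Stfa1 and Apoc2. They are shown so that the marker genes can be compared at the level of sequence. Each line gives the 250 bases before the annotated start, 5′ to 3′ on the gene's strand, from RefSeq on GRCm38.p6. Capitals mark AGGTCA, the short element bound by many nuclear receptors, or GAGGAA, a core bound by PU.1 and other ETS factors, on either strand (as TGACCT or TTCCTC on the opposite one).
F7, chr8:13025784-13026033, plus strand: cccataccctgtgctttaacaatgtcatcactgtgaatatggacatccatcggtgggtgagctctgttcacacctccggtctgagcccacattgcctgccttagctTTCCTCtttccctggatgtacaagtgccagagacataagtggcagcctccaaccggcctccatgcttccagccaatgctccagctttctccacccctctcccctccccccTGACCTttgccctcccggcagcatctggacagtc
Stfa1, chr16:36276898-36277147, plus strand: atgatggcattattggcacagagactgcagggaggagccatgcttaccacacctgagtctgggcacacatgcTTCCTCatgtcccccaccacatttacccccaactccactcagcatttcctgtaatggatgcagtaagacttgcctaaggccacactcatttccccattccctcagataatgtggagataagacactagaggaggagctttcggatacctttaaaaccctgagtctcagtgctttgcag
Apoc2, chr7:19677942-19678191, minus strand: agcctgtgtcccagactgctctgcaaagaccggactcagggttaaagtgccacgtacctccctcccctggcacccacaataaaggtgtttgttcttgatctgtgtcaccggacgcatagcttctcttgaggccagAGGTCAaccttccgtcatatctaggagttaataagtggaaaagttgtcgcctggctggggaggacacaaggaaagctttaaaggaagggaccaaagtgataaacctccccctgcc
AGGTCA was in the F7 and Apoc2 windows, and GAGGAA was in the F7 and Stfa1 windows. Among all 32851 windows cut to the same length, 14.0% held AGGTCA and 23.3% held GAGGAA, so either match is common. These matches describe letters and not sites of binding.

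Cell names carry the group but not which of its 4 labelled samples a cell came from. Each group is therefore 1 library, and no test between groups was possible. Intervals are 95% and cover counting error only. Gated cells summed to 1146035 UMIs in media control and 2299119 in deoxycholic acid. Of all barcodes, 25 occurred in both libraries, and none of them was a gated cell.

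The gated cells were shallow. Their median was 9143 UMIs in media control and 11703 in deoxycholic acid, against 19168 and 14829 over all kept cells. The upper limits are raw UMIs, which a deep cell reaches sooner, and 90.1% of gated media control cells and 72.0% of gated deoxycholic acid cells lay below their library's median. Of all the kept cells, those that met the lower limit but broke a single upper limit numbered 580 in media control and 525 in deoxycholic acid for the primary granule genes, 856 and 956 for Ngp and Camp, and 88 and 142 for Vcan and Mpeg1. Near the lower limit, 83 gated cells had exactly 2 UMIs of the 3 genes and 178 cells with 1 UMI met every other limit. Near the upper limits, 51 gated cells had 2 Vcan and Mpeg1 UMIs, and 40 cells with 3 met every other limit. Reading the limits as UMIs per 10000 (Vcan and Mpeg1 still as raw UMIs) gave 355 and 459 cells with medians of 23655 and 17866 UMIs, of which 236 were also in the raw gate, and values from that reading stand beside the main ones below.

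Gated cells took a larger share of the deoxycholic acid library. The share was 1.22% of kept cells in media control (interval 1.01 to 1.47) and 2.32% in deoxycholic acid (2.01 to 2.67), a ratio of 1.89 (1.49 to 2.41). The 2 intervals do not overlap. The ratio was smaller under the settings that handle depth. It was 1.41 with limits per 10000 UMIs (3.92% against 5.52%), 1.34 with every cell thinned to 10000 UMIs (5.95% against 7.99%), and 1.48 among cells of 5000 to 20000 UMIs. It grew to 2.85 when at least 4 UMIs of the 3 genes were asked for. Some neighbouring cells also took a larger share in deoxycholic acid. Cells that broke only the Vcan and Mpeg1 limit made up 0.97% and 1.71%, and those that broke only the Ngp and Camp limit 9.4% and 11.5%. Those that broke only the primary granule limit made up 6.40% and 6.31%, and those that broke more than 1 limit 12.3% and 8.88%. The spread between cultures is unknown, so whether the share differs between treatments cannot be tested.

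**Figure D1:**
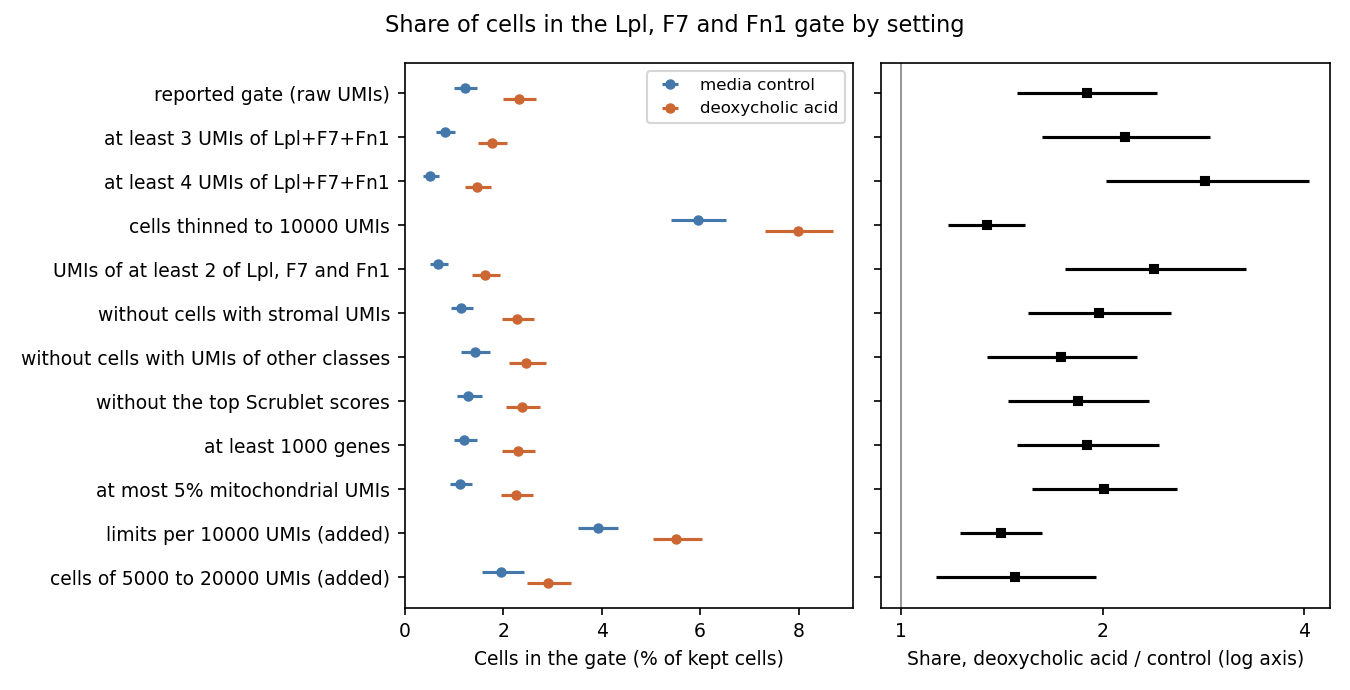
The left panel plots the percent of kept cells in the gate for each library and setting, with exact 95% binomial intervals, and the right panel plots the ratio of the 2 percentages on a log axis with its 95% counting interval. Every ratio lies above 1, from 1.34 with cells thinned to 10000 UMIs to 2.85 with at least 4 UMIs of the 3 genes.

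The marker genes that the gate did not use were higher in these cells than in the other kept cells of both libraries. They were named as markers from the same data, so their levels are a description and not a test. Stfa1 stood at 4287 CPM (UMIs of the gene per 1000000 UMIs) in media control and 5138 in deoxycholic acid, against 2196 and 2843 in the other kept cells. High Stfa1 was shared with neighbouring cells: those that broke only the Ngp and Camp limit had 3993 and 5228 CPM, and those that broke more than 1 limit had 3880 and 4944. Cells with 0 UMIs of Lpl, F7 and Fn1 that met the other limits had 503.6 and 467.8 CPM. Apoc2 stood at 94.2 and 93.5 CPM, against 31.4 and 29.96. Cells that broke only the Vcan and Mpeg1 limit had as much Apoc2, at 94.4 and 105.6 CPM. Those that broke only the Ngp and Camp limit had 66.6 and 58.5, and those that broke only the primary granule limit 32.8 and 31.6. The gate genes themselves were high by choice: Fn1 was at 303.0 CPM with both libraries pooled, F7 at 165.4 and Lpl at 137.0, against 44.5, 48.0 and 39.8 in the other cells. After thinning to 5000 UMIs, Apoc2 was detected in 33.3% and 30.7% of gated cells and in 13.6% and 12.5% of other cells, and Stfa1 in 67.8% and 77.3% against 49.4% and 52.7%. Unthinned, Apoc2 was detected in 43.2% of gated media control cells and 53.4% of gated deoxycholic acid cells.

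Markers of early progenitors were mixed, so they do not settle the name progenitor in the label. Kit, the stem cell factor receptor, gave 3 UMIs in media control and 1 in deoxycholic acid (2.62 and 0.435 CPM) against 16.4 and 22.6 CPM in the other cells. Kit was also low in cells that broke only the Ngp and Camp limit (1.49 and 2.00 CPM) or only the Vcan and Mpeg1 limit (0 in both libraries). Cd34 stood at 4.36 and 2.18 CPM. Over the 12 stem and multipotent progenitor markers the sums were 103 and 106 CPM, against 90.9 and 91.2 in the other cells. In gated cells 5 of the 12 were higher, Hoxa9 among them (48.9 and 63.9 CPM against 43.5 and 44.3). Proliferation transcripts were present, with Mki67 in 51.1% and 68.8% of gated cells after thinning, against 62.9% and 68.3% of other cells. Neutrophil precursor transcripts were abundant: the chitinase-like Chil3 stood at 6276 and 6432 CPM, the lipocalin Lcn2 at 3265 and 3102, and the alarmin S100a8 at 55093 and 64222. As a list, the 10 immature neutrophil markers were lower than in the other cells, at 17568 and 17146 CPM against 35578.5 and 37033.5. Only 2 of the 10 were higher in gated cells, and the list holds Ngp and Camp, which the gate limits. The 15 secondary and tertiary granule genes, which also hold Ngp and Camp, summed to 137835 and 135608 CPM against 187766 and 191193. The cells are therefore called by their gate here.

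Markers of other lineages differed in level. The 10 monocyte markers summed to 1043 and 1274 CPM, near the 1159 and 1258 of other cells. Of the 10, 7 were higher in gated cells, among them Vcan and Mpeg1, which the gate limits. That is near the share over all 2304 genes with at least 50 CPM in gated cells, of which 65.5% were higher there. A UMI of the list was found in 89.2% and 94.8% of gated cells, against 98.5% and 98.8% of other cells. Of the 10 macrophage markers, 5 were at 0 in all gated cells (C1qa, C1qb, Mertk, Vsig4 and Marco), and the list summed to 54.1 and 42.6 CPM, above the 18.7 and 21.8 of other cells. Among the monocyte markers Irf8, a transcription factor of monocytes and dendritic cells, was at 0, and Csf1r, the macrophage growth factor receptor, gave 0 and 3 UMIs. The conventional dendritic list summed to 10.5 and 11.7 CPM, near the 10.3 and 11.2 of other cells. The lymphoid list summed to 41.0 and 23.9 CPM, below the 140.2 and 113.6 of other cells. Ly6c2, a surface protein of monocytes and their precursors, stood at 550.6 and 780.3 CPM, below the 919.7 and 970.6 of other cells. The basophil and mast cell list summed to 619.5 CPM in media control and 197.5 in deoxycholic acid, against 181.2 and 145.6 in other cells. Of the 419 media control UMIs of the basophil protease Mcpt8 in gated cells, 253 came from 1 cell.

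Stromal transcripts stood apart. The 12 stromal feeder markers summed to 59.3 and 31.8 CPM in gated cells, against 3.59 and 4.10 in the other cells, with Postn, Lum and Pdgfrb at 0. Gated cells with at least 3 stromal UMIs numbered 7 of 111 in media control and 4 of 193 in deoxycholic acid. None of these 11 cells had an F7 UMI: 7 were detected through Fn1 alone, 3 through Lpl and Fn1, and 1 through Lpl alone. Some results that move with these cells are given below with and without them.

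Outside the gate genes, 31 of 2304 genes with at least 50 CPM in gated cells stood at least 1 log2 unit above the other cells (1.35%), after adding 10 CPM to both levels. The calcium-binding S100a4 was at 485.3 CPM against 95.4, a log2 fold of 2.23, and its relative S100a10 at 588.9 against 121.2 (2.19). The galactose-binding lectin Lgals1 (1.81), lamin A/C (Lmna, 1.79), the stefin Csta2 (1.72), the metal-binding metallothionein Mt2 (1.69) and the neutrophil collagenase Mmp8 (1.40) followed. At least 2 of them were also high in cells with 0 UMIs of Lpl, F7 and Fn1 that met the other limits: Mmp8 stood there at 1355 CPM against 397.4 in the gate, and Lgals1 at 854.6 against 907.4. With 1 UMI of the 3 genes Lgals1 stood at 1301 CPM. With both libraries pooled, all the genes just named were higher in cells that broke only the Vcan and Mpeg1 limit. S100a4 stood there at 1132 CPM, S100a10 at 941.7, Lgals1 at 1033 and Lmna at 178.4 (103.0 in the gate). Csta2 stood at 579.2 (279.8 in the gate), Mt2 at 601.9 (546.0) and Mmp8 at 1047. In media control alone, Lgals1 and Mt2 were lower there than in the gate. Mmp8 stood at 142.1 CPM with limits per 10000 UMIs, against 144.0 in the cells outside the raw gate. These values describe cells chosen on the same transcriptomes, so they carry no test. S100a4, S100a10, Lmna, Lgals1, Csta2 and Mt2 were also among the 15 leading genes with limits per 10000 UMIs, with log2 folds of 1.40, 1.36, 1.31, 1.04, 0.87 and 0.87.

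The rest of the leading genes rested on few cells. Pleiotrophin (Ptn, 2.80), a secreted growth factor, was detected in 10.0% and 1.14% of gated cells after thinning, and the cell cycle inhibitor Cdkn2a (2.64) in 12.2% and 2.84%. Cdkn2a stood at 0 CPM among cells with F7 alone, with F7 and Fn1, or with all 3 genes, and at 419.9 CPM among cells with Fn1 alone. For the lysosomal protease Ctsl, 181 of 252 media control UMIs came from 1 cell, and for the haem oxygenase Hmox1, 130 of 170. For the scaffold protein Ahnak, 92 of 162 deoxycholic acid UMIs came from 1 cell, and for the actin-binding Lima1, 81 of 153. The chemokine Ccl4 was detected in 5.56% and 2.27% of gated cells after thinning.

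**Figure D2:**
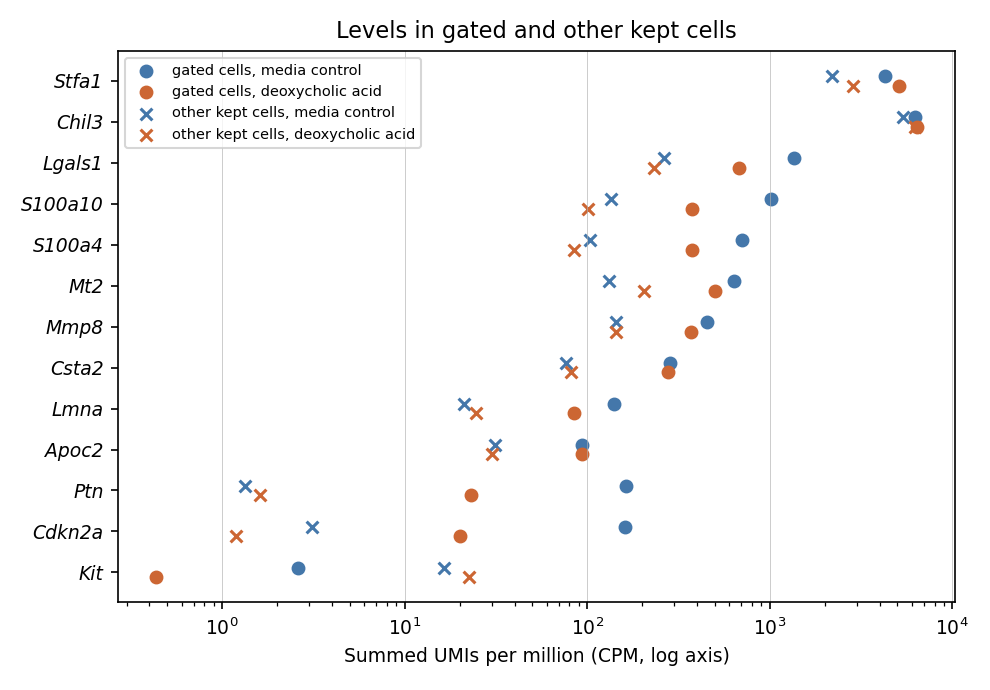
Each row gives the level of a gene as CPM on a log axis, in gated cells (circles) and other kept cells (crosses) of both libraries. Stfa1, Apoc2 and Csta2 lie to the right of the other cells in both libraries by like distances, Ptn and Cdkn2a lie farther to the right in media control than in deoxycholic acid, and Kit lies to the left.

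The 3 gate genes were unevenly combined. Of 304 cells, 56 had UMIs of all 3, 63 of F7 and Fn1, 59 of Lpl and F7, 20 of Lpl and Fn1, 46 of F7 alone, 44 of Fn1 alone and 16 of Lpl alone. Cells with at least 2 of the 3 made up 55.9% of gated cells in media control (62 of 111) and 70.5% in deoxycholic acid (136 of 193), where gated cells were deeper. Among the kept cells that met the upper limits, thinned to 5000 UMIs, F7 was found in 49 of 104 cells with an Lpl UMI (47.1%) and in 14.8% of those without. Fn1 was found in 38.5% of cells with an Lpl UMI and in 11.4% of those without. Apoc2 was found in 33.7% and 17.8% of the same groups. The gate did not use Apoc2, but Apoc2 was named as a marker from the same data. Its share is therefore a description and not a test.

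Levels differed between these combinations. Cells with Fn1 alone had the highest Lgals1 (3664 CPM), S100a10 (2189) and Mmp8 (820.6), and the lowest Stfa1 (1885) and Mki67 (189.1). Cells with Lpl and F7 but no Fn1 UMI had the highest Stfa1 (7307 CPM) and the lowest Mmp8 (115.8). Cells with all 3 stood at 4879 CPM for Stfa1 and 206.1 for Mmp8. Median depth ran from 6452 UMIs with Fn1 alone to 14853 with all 3, and 7 of the 44 cells with Fn1 alone carried at least 3 stromal UMIs. The part of depth and of those cells in the differences was not tested. Cells just outside the gate through Vcan and Mpeg1 had more S100a4 (1132 CPM) and Mmp8 (1047) and less Stfa1 (3223), those outside through the primary granule genes had 140.3, 39.3 and 1952 CPM, and those outside through Ngp and Camp had 85.4, 84.7 and 4583 CPM.

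**Figure D3:**
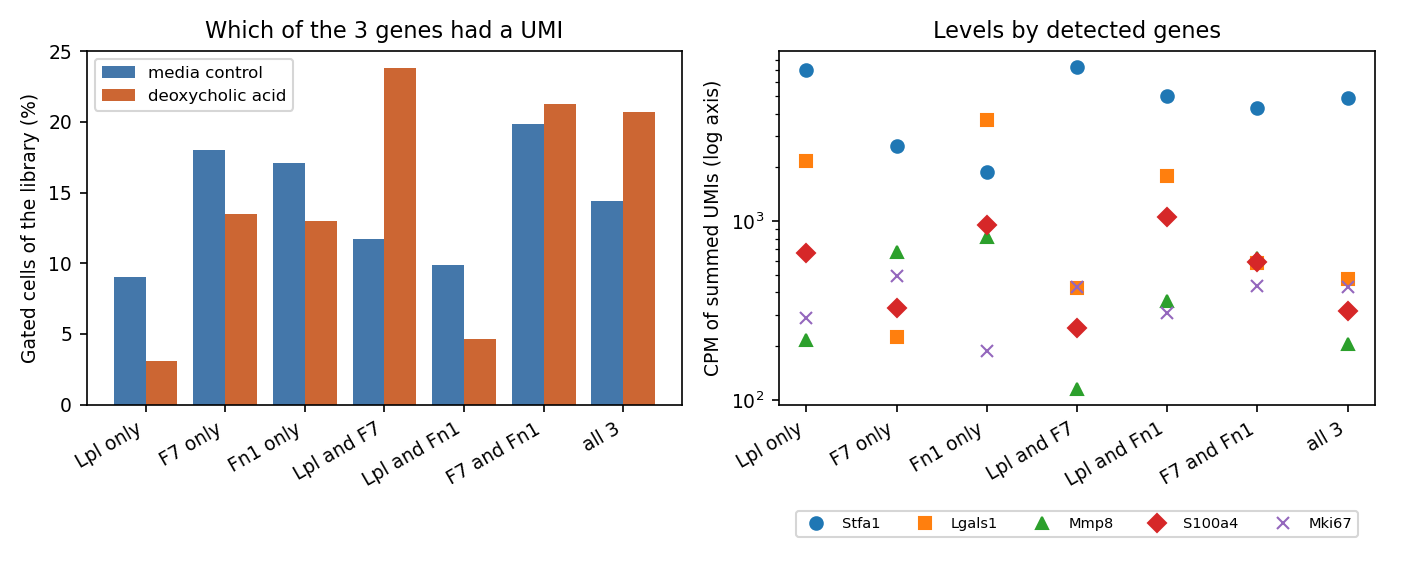
The left panel shows the percent of gated cells of each library in which the named combination of Lpl, F7 and Fn1 had a UMI, and the right panel shows the level of 5 genes over the cells of each combination as CPM on a log axis. Lpl with F7 made up 11.7% of media control and 23.8% of deoxycholic acid gated cells, and cells with Fn1 alone combine the lowest Stfa1 with the highest Lgals1 and Mmp8.

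Deoxycholic acid was then compared with media control within the gated cells, as the log2 ratio of CPM (positive where deoxycholic acid was higher). A gene was counted as past the fold at an absolute log2 ratio of 0.5. Genes entered if the library with the higher level reached 20 CPM and 50 UMIs. Of these 3814 genes, 785 were past it (20.6%), 551 higher (14.4%) and 234 lower (6.14%), with a median ratio of 0.11. In the far larger set of other kept cells, 224 of 4674 were past it (4.79%). With limits per 10000 UMIs, 263 of 4847 were past it (5.43%), 106 higher (2.19%) and 157 lower (3.24%). Dividing by a median-of-ratios size factor removes the shift of 0.11 and gives 359 higher and 362 lower.

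Cebpb, a transcription factor of granulocyte and macrophage genes, was lower in deoxycholic acid. It stood at 369.1 CPM in media control (423 UMIs) and 177.9 in deoxycholic acid (409 UMIs), a log2 ratio of -1.05 (interval -1.25 to -0.85). It was -0.95 with limits per 10000 UMIs and -0.93 in the other kept cells. The 15 alternatives that recompute a gene's ratio gave -1.17 to -0.86. Hexokinase Hk2, the entry enzyme of glycolysis, stood at 77.7 and 138.7 CPM (0.84, interval 0.49 to 1.19, other cells 0.77). The zinc-finger repressor Klf10 stood at 26.2 and 47.0 CPM (0.84, 0.25 to 1.48, other cells 0.90), and ran from 0.54 to 1.04 over the alternatives. Cebpb and Klf10 were past the fold under all 15 alternatives, and Hk2 was not.

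Lipid handling genes showed no common direction. Of 26 genes listed, 22 reached 5 CPM, 12 higher and 10 lower in deoxycholic acid, with 2 and 3 past the fold and a median log2 ratio of 0.05. Over all 8878 genes with at least 5 CPM, 33.4% were past the fold (16.2% higher, 17.2% lower) and the median was -0.0044, and each list below is read against these shares. Lpl, a gate gene, stood at 136.1 and 137.4 CPM and Apoc2 at 94.2 and 93.5, a ratio for Apoc2 of -0.01 (-0.35 to 0.34). The lipid droplet protein Plin2 stood at 284.5 and 247.1 CPM (-0.20) and the fatty acid carrier Fabp5 at 278.4 and 198.3 (-0.49, interval -0.70 to -0.28). Apoe, a ligand for lipoprotein receptors, stood at 31.4 and 45.2 CPM (0.53, -0.03 to 1.12).

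Coagulation genes went both ways. Only 8 of 21 reached 5 CPM, 5 higher and 3 lower, with 1 and 3 past the fold and a median of 0.03. F7, a gate gene, stood at 140.5 and 177.9 CPM (0.34, 0.07 to 0.61), and at 163.8 and 171.5 with limits per 10000 UMIs. The cells were chosen on F7, so its ratio is a description and not a test. Factor X (F10), which the factor VII complex activates, stood at 116.9 and 121.4 CPM (0.05, -0.25 to 0.36), and the clot-stabilising transglutaminase F13a1 at 401.4 and 405.4 (0.01, -0.15 to 0.18). F13a1 was about as high in gated cells of both libraries, above the 177.4 and 222.6 CPM of other cells, but it stood at 359.5 and 435.5 in cells with 0 UMIs of Lpl, F7 and Fn1 that met the other limits. The urokinase receptor Plaur stood at 33.2 and 21.3 CPM (-0.64, -1.28 to 0.01).

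Of the 21 fibronectin, integrin and adhesion genes, 9 were higher and 12 lower, with 4 and 2 past the fold and a median of -0.12. Fn1, also a gate gene, stood at 267.9 and 320.6 CPM (0.26, 0.06 to 0.46), and at 182.3 and 226.0 with limits per 10000 UMIs. Its ratio, like that of F7, describes cells chosen on the gene. Of the fibronectin receptor subunits, Itga4 stood at 14.0 and 29.1 CPM (1.06, 0.26 to 1.95) and Itgb1 at 121.3 and 108.3 (-0.16, -0.47 to 0.15). The ratio of Itga4 was 0.04 with limits per 10000 UMIs. The tetraspanin Cd9 stood at 118.7 and 24.4 CPM (-2.28, -2.76 to -1.83), was -1.22 with limits per 10000 UMIs and -0.58 in the other cells. For the matrix receptor Sdc4, 92 of the 103 deoxycholic acid UMIs came from 1 cell. Its ratio of 1.68 became -1.13 without the top cell of each library.

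Stefins differed among themselves. Of 14 listed, 11 were in the table and all of these reached 5 CPM, 3 higher and 8 lower, with 0 and 4 past the fold and a median of -0.17. Stfa1 was higher in deoxycholic acid by 0.26 (0.21 to 0.31), and by 0.37 in the other cells, but it was -0.10 with limits per 10000 UMIs. Stfa2 stood at 518.3 and 176.6 CPM (-1.55, -1.74 to -1.37), Stfa3 at 408.4 and 219.2 (-0.90) and the broadly expressed Cstb at 381.3 and 187.9 (-1.02, -1.22 to -0.83). With limits per 10000 UMIs these were -0.67, -0.40 and -0.65, and in the other cells 0.04, 0.09 and -0.65. Csta2 stood at 284.5 and 277.5 CPM (-0.04), Cstdc4 at 4476 and 3988 (-0.17) and Cstdc5 at 5447 and 5952 (0.13). Stfa and Cstdc genes are near-copies of each other, and reads may be split between them.

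**Figure D4:**
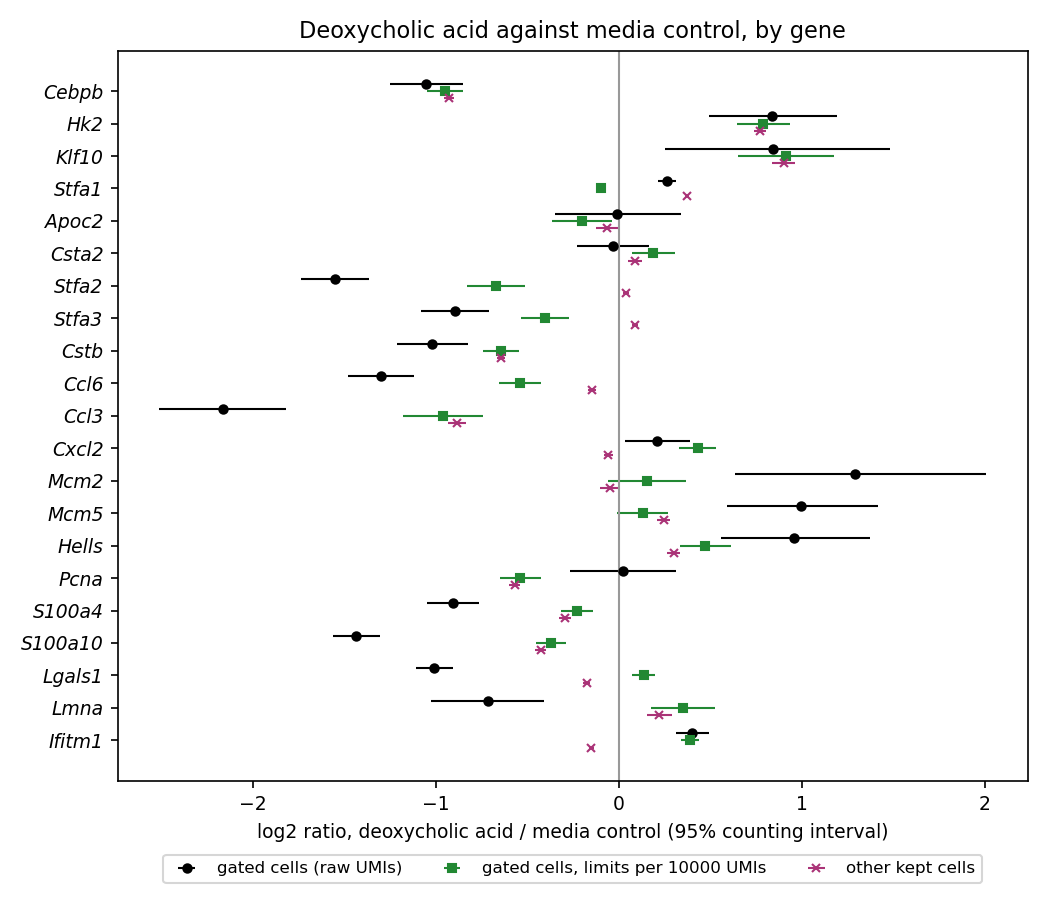
Log2 ratios of deoxycholic acid over media control are plotted for 21 genes with 95% counting intervals, in gated cells (circles), in cells gated with limits per 10000 UMIs (squares) and in the other kept cells (crosses). Cebpb, Hk2 and Klf10 lie close together in all of them, whereas Lgals1 and Lmna lie left of 0 in gated cells and right of 0 with limits per 10000 UMIs.

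Several leading genes of the gate were lower in deoxycholic acid, by amounts that depended on how depth and stromal cells were treated. S100a4 stood at 705.0 and 375.8 CPM (-0.91, -1.05 to -0.77), S100a10 at 1017 and 375.8 (-1.44, -1.56 to -1.31), Lgals1 at 1366 and 678.5 (-1.01, -1.11 to -0.91) and Lmna at 139.6 and 84.8 (-0.72, -1.03 to -0.41). Without cells of at least 3 stromal UMIs the ratios were -0.61, -0.47, -0.45 and -0.21. With limits per 10000 UMIs they were -0.23, -0.37, 0.13 and 0.35, so Lgals1 and Lmna changed sign. Mt2 stood at 639.6 and 499.3 CPM (-0.36), but at 0.83 with limits per 10000 UMIs and 0.64 in the other cells. Mmp8 stood at 454.6 and 368.8 CPM (-0.30, -0.46 to -0.14). Csta2 was level, as given above, and Ahnak stood at 31.4 and 70.5 CPM (1.17) and Lima1 at 38.4 and 66.5 (0.79), which were 0.22 and -0.08 without the top cells.

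Granule genes mark steps of neutrophil maturation. Of 12 primary granule genes 11 reached 5 CPM, and the 7 that the gate did not use had a median of -0.05 (-0.01 with limits per 10000 UMIs). Of 15 secondary and tertiary granule genes, 4 were higher and 11 lower, with 1 and 4 past the fold and a median of -0.30. The gate used 2 of the 15, and the other 13 had the same median. With limits per 10000 UMIs the median was -0.06 with the gate genes and -0.02 without them. Lactoferrin (Ltf) stood at 626.5 and 381.4 CPM (-0.72, -0.86 to -0.57), and at 0.03 with limits per 10000 UMIs. Chil3 was level (0.04, -0.01 to 0.08). S100a8 was higher by 0.22 and its partner S100a9 lower, at -0.26, and the other cells gave 0.26 and -0.22. Annexin A1 (Anxa1), a regulator of neutrophil migration, stood at 515.7 and 287.5 CPM (-0.84) and gave -0.70 with limits per 10000 UMIs and -0.50 in the other cells.

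S phase genes were higher in gated cells of deoxycholic acid. All 18 reached 5 CPM, 16 higher and 2 lower, with 11 past the fold, all higher, and a median of 0.52. The replicative helicase subunit Mcm2 stood at 20.1 and 49.2 CPM (1.29, 0.64 to 2.01), Mcm5 at 55.0 and 109.6 (1.00, 0.59 to 1.42) and Mcm6 at 61.1 and 115.3 (0.92, 0.53 to 1.32). The chromatin remodeller Hells stood at 56.7 and 110.0 CPM (0.96, 0.56 to 1.37). Pcna, the polymerase clamp, was level at 130.0 and 131.8 (0.02, -0.27 to 0.31). The same list had a median of 0.10 with limits per 10000 UMIs, 0.12 with cells thinned to 10000 UMIs and 0.02 in the other cells, where Pcna was lower (-0.57). Of 18 G2 and M phase genes, 14 were higher, with 3 past the fold, and 4 lower, with 1 past it, for a median of 0.23. Under limits per 10000 UMIs 7 were higher and 11 lower, with a median of -0.12. Mki67 stood at 321.1 and 443.6 CPM (0.47, 0.29 to 0.64), and 0.04 with limits per 10000 UMIs. Ube2c, which drives exit from mitosis, was lower (-0.59, -0.86 to -0.33), and -0.67 with limits per 10000 UMIs.

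Replication-dependent histone genes were higher in both sets of cells. Hist1h2ap stood at 650.9 and 1618 CPM in gated cells, a ratio of 1.31, and gave 1.09 with limits per 10000 UMIs and 1.00 in the other cells. Hist1h3b (8.73 and 36.1 CPM, 2.05) and Hist1h4a (5.24 and 22.2 CPM, 2.08) were among the 10 largest ratios, with 0.86 and 0.78 in the other cells. Histone genes share sequence, so single members are uncertain. The ribosomal protein gene Rps29 stood at 3840 and 7358 CPM (0.94, 0.89 to 0.99), with 0.75 in the other cells.

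Inflammatory genes were lower in gated cells of deoxycholic acid. Of 15 cytokine and chemokine genes, 14 reached 5 CPM, 12 lower and 2 higher, with 10 and 1 past the fold and a median of -0.90. It was -0.14 with limits per 10000 UMIs and -0.16 in the other cells. The chemokine Ccl6 stood at 489.5 and 198.8 CPM (-1.30, -1.48 to -1.12) and gave -0.54 with limits per 10000 UMIs and -0.15 in the other cells. Ccl3, which attracts monocytes and lymphocytes, stood at 200.7 and 44.8 CPM (-2.16, -2.51 to -1.82) and was detected in 17.8% and 11.4% of cells after thinning. Ccl3 gave 0.07 among cells with at least 3 UMIs of the gate genes. The neutrophil attractant Cxcl2 stood at 328.1 and 378.8 CPM (0.21, 0.03 to 0.39), with 166 of 376 media control UMIs in 1 cell, and at 0.89 without the top cell of each library. The monocyte attractant Ccl2 had 59 UMIs in media control, 50 of them in 1 cell, and 0 in deoxycholic acid, a log2 ratio of at most -5.30 with a floor of 3 counts in place of 0. Il1rn, the natural blocker of the interleukin-1 receptor, stood at 39.3 and 19.1 CPM (-1.04, -1.67 to -0.40).

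**Figure D5:**
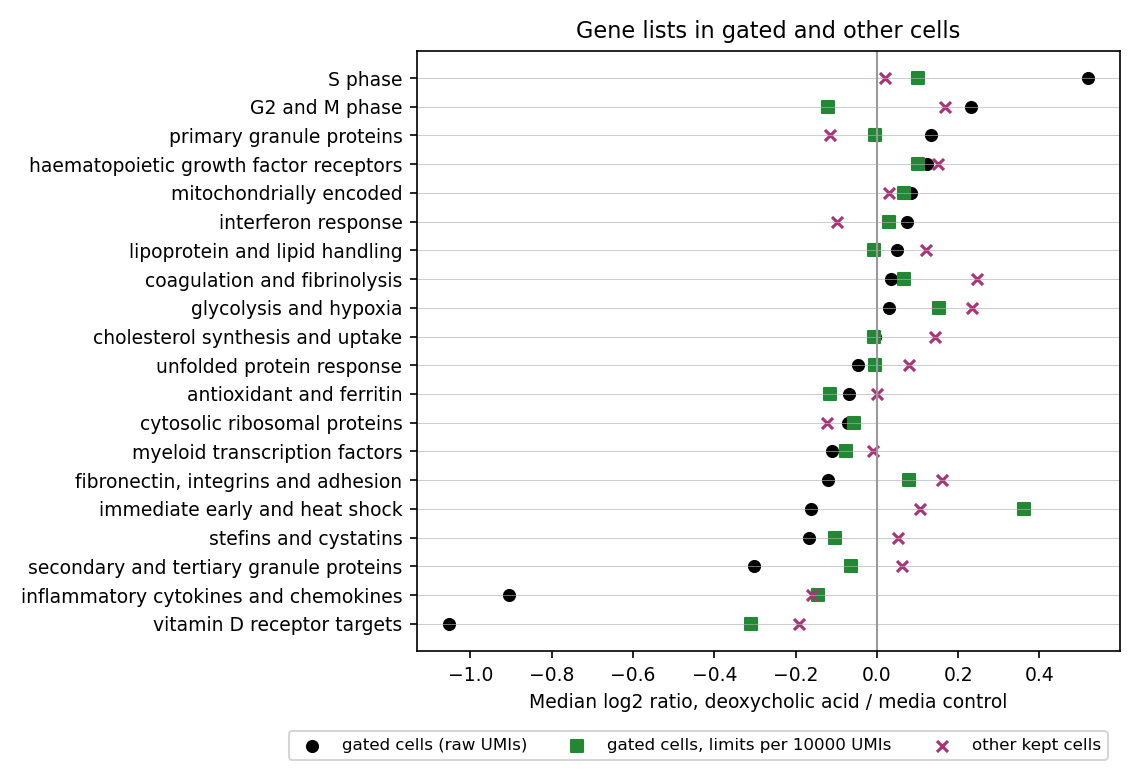
Each row is a gene list with the median log2 ratio of deoxycholic acid over media control over its genes with at least 5 CPM, in gated cells (circles), with limits per 10000 UMIs (squares) and in the other kept cells (crosses). The S phase median of 0.52 and the inflammatory median of -0.90 in gated cells lie far from the squares at 0.10 and -0.14.

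Among 10 vitamin D receptor targets, 7 reached 5 CPM, 6 lower and 1 higher, with 5 and 1 past the fold and a median of -1.05. It was -0.31 with limits per 10000 UMIs and -0.19 in the other cells. Cyp24a1 and Trpv6, the classical targets, were at 0. Those measured included Cebpb (above), the matrix protein osteopontin (Spp1, 177.1 and 48.3 CPM, -1.88), the cell cycle inhibitor Cdkn1a (112.6 and 72.2, -0.64) and the endotoxin co-receptor Cd14 (15.7 and 5.22, -1.59). For Spp1, 112 of 203 media control UMIs came from 1 cell, and the ratio without the top cells was -0.79. Cdkn1a gave 0.08 with limits per 10000 UMIs and 0.17 in the other cells. For Cd14, 11 of 18 media control UMIs came from 1 cell, and its ratio without the top cells was -0.50. Tgfb1, a cytokine that restrains proliferation of early progenitors, stood at 82.9 and 147.4 CPM (0.83, 0.50 to 1.17).

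Of 14 growth factor receptors 11 reached 5 CPM, 8 higher and 3 lower, with 3 and 2 past the fold and a median of 0.12. The GM-CSF receptor chains stood at 86.4 and 130.9 CPM for Csf2ra (0.60, 0.27 to 0.94) and 68.9 and 100.04 for Csf2rb (0.54, 0.16 to 0.92), with 0.17 and 0.24 under limits per 10000 UMIs. The decoy receptor Il1r2 was level, at 387.4 and 421.9 CPM (0.12, -0.04 to 0.29). Of 18 immediate early and heat shock genes 16 reached 5 CPM, 7 higher and 9 lower, with 1 and 5 past the fold. The activator protein subunit Jun was higher, at 466.8 and 634.2 CPM (0.44, 0.30 to 0.59), Fosb stood at 62.0 and 74.4 (0.26, -0.14 to 0.68) and Fos at 307.1 and 290.1 (-0.08, -0.27 to 0.11). In the other cells these were 0.53, 0.94 and 0.43. The immediate early and heat shock median was -0.16 in the gated cells and 0.36 with limits per 10000 UMIs, where 14 of 16 were higher.

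Ifitm1, an interferon-inducible membrane protein, was higher in gated cells of deoxycholic acid and lower in the rest. It stood at 1230 and 1624 CPM (0.40, 0.31 to 0.49), against 672.5 and 605.7 CPM in the other cells (-0.15). It was 0.39 with limits per 10000 UMIs and 0.03 with cells thinned to 10000 UMIs. Ifitm1 was also higher in deoxycholic acid with 1 UMI of Lpl, F7 and Fn1 and the other limits met (1592 and 1900 CPM). It was lower with 0 UMIs of these genes and the other limits met (2185 and 1966). It was also lower in cells that broke only the Vcan and Mpeg1 limit (4046 and 3200). All these levels were above those of the gate. It was lower in deoxycholic acid, and below the gate, in cells outside through primary granule genes, Ngp and Camp, or more than 1 limit. Iron storage genes were high in the gate, with Fth1 at 3714 and 2713 CPM (-0.45, other cells -0.03) and Ftl1 at 8032 and 7544 (-0.09). Mitochondrial superoxide dismutase (Sod2) stood at 106.5 and 65.2 CPM (-0.71), with -0.85 in the other cells. Of glycolysis genes, Eno1 stood at 456.4 and 618.9 CPM (0.44) and the glucose transporter gene Slc2a3 at 94.2 and 40.5 (-1.22), which was 0.12 with limits per 10000 UMIs.

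Several of the largest ratios rested on 1 cell. The eosinophil granule protein Prg2 had the largest positive ratio (3.84), with all 259 deoxycholic acid UMIs in 1 cell. The platelet chemokine Pf4 had 53 of 55 media control UMIs in 1 cell, and its ratio of -2.98 became 1.56 without the top cells. The unannotated 2900093K20Rik (2.88) had 98 of 162 deoxycholic acid UMIs in 1 cell, and the nucleolar factor Utp14b (2.29) 43 of 59. The phosphatidate phosphatase Lpin2 (3.49 and 23.1 CPM, 2.72) and the nuclear import receptor Kpna2 (8.73 and 34.8, 2.00) had at most 3 and 6 UMIs in a cell. The ribosome assembly factor Mdn1 (7.85 and 29.1, 1.89) had 18 of 67 deoxycholic acid UMIs in 1 cell, and Trim35 (6.98 and 25.7, 1.88) had 17 of 59. With limits per 10000 UMIs these 4 gave 0.42, 0.44, 0.25 and 0.48. The largest negative ratios included the linker histone H1fx (60.2 and 6.09 CPM, -3.31), Cdkn2a (-3.00), Ptn (-2.82), the actin regulator Cald1 (-2.74), Hmox1 (-2.63), Ctsl (-2.57) and the protease inhibitor Timp2 (-2.26), where Hmox1, Ctsl and Timp2 gave -0.67, -0.82 and -1.10 without the top cells. Without cells of at least 3 stromal UMIs, H1fx gave -0.97, Cald1 -1.56, Hmox1 -0.42 and Ctsl -0.19. Ptms gave -1.18 and -0.19 without those cells. Across the 15 alternatives that recompute a ratio, Ptn ran from -5.27 to -0.64, Cdkn2a from -4.34 to -1.03 and Timp2 from -3.74 to -0.69.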

How the data were processed

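The authors deposited 1 table of raw counts (UMIs per gene and cell), made with Cell Ranger 6.0 per the submitters' processing notes; the sources used here do not give genome build or annotation. The table held 32285 genes and 9346 media control and 8520 deoxycholic acid barcodes. The members and lists were chosen with earlier results of these data known. Cells with at least 300 genes and at most 10% mitochondrial UMIs were kept. UMIs were summed per library and given as CPM, with exact conditional binomial intervals for ratios and exact (Clopper-Pearson) intervals for shares, and a floor of 3 counts in place of 0. With 1 library per group no test across genes was made, and whether the lettered samples were separate cultures is not stated. The lithocholic acid arm named in the labels was not analysed here. Shares of cells with a UMI used cells thinned to 5000 UMIs, which left out 21 media control and 17 deoxycholic acid gated cells. Doublets were not removed, since Scrublet's automatic threshold marked 1 cell per library; leaving out the top 6% of scores was an alternative. Genes were named as the markers, the 15 leading genes, the 10 largest ratios each way and up to 5 per list, of which 1 is not reported here; the others (Rps29, Hist1h2ap, Anxa1 and further members of lists) were chosen after their values were seen. The gate with limits per 10000 UMIs and the range of 5000 to 20000 UMIs were added after seeing the data. The calculation was tested on simulated data. Python 3.11.15, numpy 2.4.6, scipy 1.17.1 and scanpy 1.11.5 were used.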

Additional observations from a re-analysis of the deposited data

How the results depend on the processing

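No paired analysis was possible because the cell names carry no sample letter and each group is 1 library; for the same reason no replicate could be left out. The larger share in deoxycholic acid kept its direction under all 11 alternatives. Its ratio of 1.89 became 2.85 with at least 4 UMIs of the gate genes, 1.34 with cells thinned to 10000 UMIs, 1.41 with limits per 10000 UMIs and 1.48 among cells of 5000 to 20000 UMIs. The 785 genes past the fold (551 higher, 234 lower) became 377 (187 higher) with thinning, 263 (106 higher) with limits per 10000 UMIs, 323 (216 higher, 107 lower) with a minimum of 50 CPM and 100 UMIs, and 4676 (2064 higher, 2612 lower) with no minimum. A median-of-ratios size factor gave 359 higher and 362 lower. Those lower numbered 147 with at least 4 UMIs, and 152 both with UMIs of at least 2 gate genes and without cells with UMIs of other classes.

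Of 1469 gene ratios recomputed, 1073 stayed within the stated limits, 361 moved and 35 changed sign from past the fold; with genes within the fold counted too, 103 ratios of 32 genes changed sign, 16 of them with limits per 10000 UMIs. Of 340 list medians, 97 moved by at least 0.1, and 42, from 12 lists, changed sign. With limits per 10000 UMIs 5 list medians did so (lipid handling, adhesion, primary granule, G2 and M phase, immediate early). Among genes past the fold, sign changes with limits per 10000 UMIs were Lgals1 0.13, Lmna 0.35, Ptms 0.34, Ltf 0.026, Cdkn1a 0.084 and Slc2a3 0.12. With thinning to 10000 UMIs they were Lmna 0.038, Prg2 -3.90 and Plaur 0.19. With at least 2 gate genes they were Ahnak -1.05, Lima1 -0.11, Ccl4 1.18, Prg2 -1.65, Pf4 1.35, and a log2 ratio of Sdc4 of -4.56. With at least 3 UMIs they were Ccl4 1.94 and Ccl3 0.067, and with at least 4, Ccl4 1.90, Pf4 1.80 and Apoe -0.41. Without stromal UMIs they were Ahnak -0.24, Lima1 -0.0020 and Sdc4 -0.67. Among cells of 5000 to 20000 UMIs they were Ahnak -0.71, Lima1 -0.50, Pf4 2.37 and Sdc4 -2.19. Without the top cell of each library they were Lima1 -0.084, Prg2 -2.24, Pf4 1.56 and Sdc4 -1.13. Without cells with UMIs of other classes they were Ccl4 0.69, Prg2 -2.04, Pf4 2.13 and Sdc4 -1.21. The cause of these changes was not tested. Small sums limit single genes: a gene at 20 CPM rests on few UMIs in the media control gate.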

Other observations

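Mature neutrophil markers were lower in gated cells of deoxycholic acid. All 10 reached 5 CPM, 9 lower and 1 higher, with 6 and 0 past the fold and a median log2 ratio of -0.86, against 0.05 in the other kept cells and -0.10 with limits per 10000 UMIs. The monocyte list had 5 of 7 measured genes higher and a median of 0.04.

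Of 782 genes outside the gate that were past the fold, 118 were past it in the same direction in the other kept cells. Over all 4674 genes measured in the other kept cells, 4.79% were past the fold in either direction. Across 15 alternatives, 87 of the 782 were past the fold in the same direction every time, 46 higher and 41 lower in deoxycholic acid. Of these 87, 66 were also past it in the same direction in the other kept cells. The 15 include the gate with limits per 10000 UMIs, where only 236 of 814 cells were in the raw gate. That requirement therefore favours genes that move alike in the other kept cells. The genes named next are among those of the 87 that were not past the fold in the other kept cells. The cytoskeletal linker Macf1 stood at 41.9 and 142 CPM (1.76), with 0.21 in the other cells. Bst1, a surface enzyme of myeloid and stromal cells, stood at 58.5 and 13.9 CPM (-2.07), with -0.00378 in the other cells. Ifitm6, an interferon-inducible family member of myeloid cells, stood at 870.0 and 434.1 CPM (-1.003), with -0.11 in the other cells. Whether these ratios differ between gated and other cells was not tested. These genes were chosen after their values were seen.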
